A study of Mus musculus with 6 samples.

Results

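Striatal projection neurons, also called medium spiny neurons, are the GABA-releasing output cells of the striatum, the forebrain region beneath the cortex. The genes described here are 37 genes known for high expression in these cells, taken by name from a deposited table of 56748 genes. They were chosen by name and not by a value in these libraries. However, earlier results of the same data were known when this list and the other gene lists below were drawn up. All 37 were found, each in 1 row, and all 37 had enough counts to be tested among 17584 genes.

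The 6 libraries came from male wild-type C57 mice with a photothrombotic stroke, in which a laser and an intravenous agent clot vessels of the left hemisphere. Mice received 100 µL of either saline or PLEA nanoparticles into the tail vein 2 hours after the stroke, 3 libraries for each treatment. All 6 carry the label day 3, entered as a batch. The series describes the tissue as infarct cortex and the sample labels give only brain. No library from an animal without a stroke was analysed here, so every comparison is PLEA against saline. The labels do not say that replicates are separate animals or pools, and p-values then measure only the spread between these libraries, which may be technical.

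In these neurons dopamine acts through 2 main receptors. Cells of the direct pathway carry the D1 receptor, which couples through the G protein subunit Gαolf to adenylyl cyclase 5 and raises cyclic AMP. Cells of the indirect pathway carry the D2 receptor, which lowers cyclic AMP, and the adenosine receptor encoded by Adora2a, which raises it. Cyclic AMP activates protein kinase A, which phosphorylates DARPP-32, the product of Ppp1r1b, and turns it into an inhibitor of protein phosphatase 1. Phosphodiesterases such as PDE10A break cyclic AMP down again.

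Upstream sequences of 3 members are shown because they hold a cyclic AMP response element, a retinoic acid response element and the GC box, a common promoter element. They come from RefSeq's GRCm38.p6, in which 27 of the 37 genes had a promoter entry, and each is the 250 bases before the start, 5′ to 3′ on the gene's strand. The upstream sequence of Gpr6 lies at chr10:41072291-41072540, minus strand, with the cyclic AMP response element TGACGTCA in capitals. That of Rarb lies at chr14:16575477-16575726, minus strand, with the retinoic acid response element of the type called DR5, a repeat with a spacer, in capitals. That of Drd2 lies at chr9:49340153-49340402, plus strand, with the GC box GGGCGG, read on either strand, in capitals.
Gpr6: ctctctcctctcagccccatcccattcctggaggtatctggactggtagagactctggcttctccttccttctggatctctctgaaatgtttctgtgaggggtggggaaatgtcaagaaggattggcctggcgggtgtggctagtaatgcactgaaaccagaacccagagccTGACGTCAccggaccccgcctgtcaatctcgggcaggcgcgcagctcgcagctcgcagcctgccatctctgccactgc
Rarb: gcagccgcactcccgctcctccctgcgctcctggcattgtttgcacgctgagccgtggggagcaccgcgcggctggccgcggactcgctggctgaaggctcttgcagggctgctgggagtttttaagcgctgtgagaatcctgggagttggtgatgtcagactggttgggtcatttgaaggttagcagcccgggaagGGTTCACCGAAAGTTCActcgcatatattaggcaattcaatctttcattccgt
Drd2: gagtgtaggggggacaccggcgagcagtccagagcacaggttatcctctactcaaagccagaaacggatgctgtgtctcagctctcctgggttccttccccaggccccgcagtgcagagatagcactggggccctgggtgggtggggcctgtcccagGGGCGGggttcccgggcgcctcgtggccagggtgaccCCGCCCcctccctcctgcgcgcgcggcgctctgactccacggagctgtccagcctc

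Searched on both strands of the same 250 bases in 32851 RefSeq promoters, TGACGTCA was in 1.55% and, of the 27 genes, in Gpr6 alone. The DR5 element was in 0.0883% of promoters and, of the 27, in Rarb alone, where it starts 53 bases before the start site. The GC box was in 32.7% of all promoters and in 17 of the 49 entries of these genes. In each printed sequence only 1 kind of motif is marked. A match describes the letters and is not evidence that a factor binds there.

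Each library held between 16810448 and 17516434 counts. Levels are given as CPM, counts relative to library size after TMM scaling, and values are listed in the order of replicates 1, 2 and 3. In the saline libraries the 37 genes made up 0.332%, 0.169% and 0.548% of all counts. In the PLEA libraries they made up 0.351%, 0.587% and 0.517%. Saline replicate 2 stood apart as the lowest library for 33 of the 37 genes, against 22.2% of all tested genes. Ebf1 and Oprm1 went against the rest, with their highest level in saline replicate 2, where 21.9% of all tested genes had theirs. In bulk tissue, fewer cells of a type and less RNA per cell cannot be told apart, and how much striatum each piece held was not recorded.

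The order of the libraries was shared by most of the genes, an ordering noted after the values were seen. In 31 of the 37, saline replicate 2 was lowest, saline replicate 1 and PLEA replicate 1 came next, and saline replicate 3 with PLEA replicates 2 and 3 lay above them. The same order held in 3.85% of all tested genes. Measured as the median deviation from each gene's own mean on the log2 scale, the libraries were at -0.27, -1.58 and 0.73 in saline and at -0.08, 0.74 and 0.59 in PLEA. Over all tested genes the same medians lay between -0.016 and 0.013. A library of each treatment was therefore found at the middle level, and libraries of both treatments at the high one. The 37 genes are read from the same 6 libraries, so a count of genes is not a count of independent observations.

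**Figure D1:**
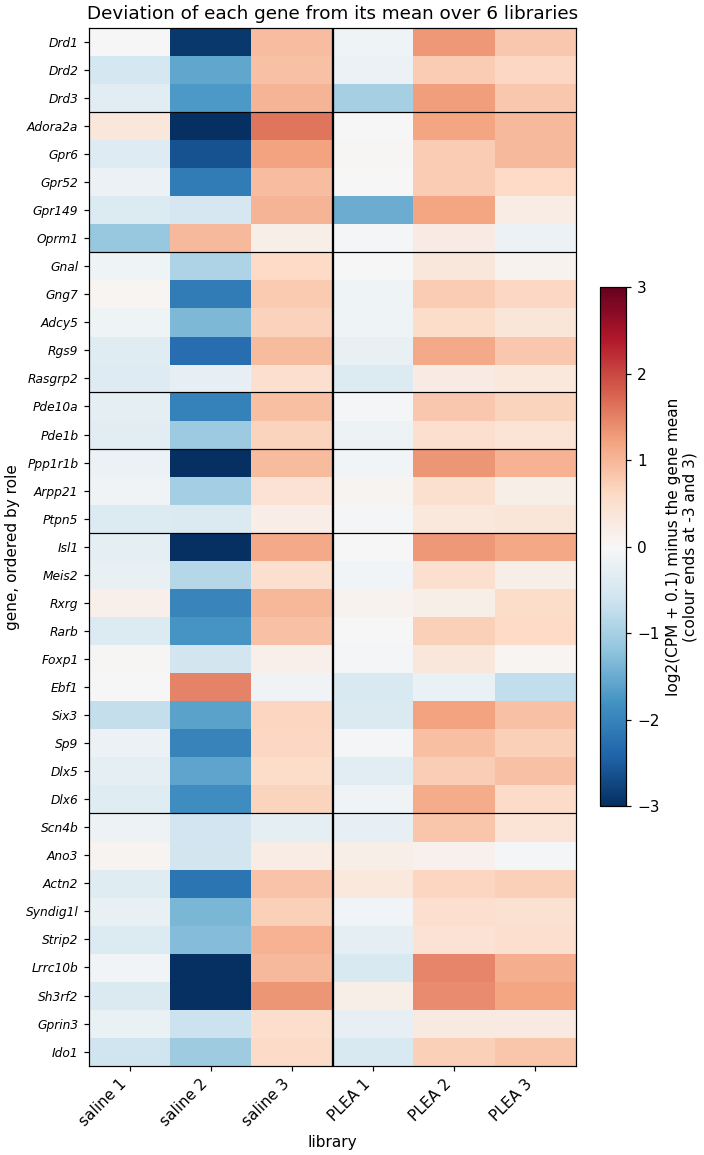
Rows are the 37 genes ordered by role and columns the 6 libraries, and colour gives log2(CPM + 0.1) minus the gene's mean over the libraries, with the colour scale ending at -3 and 3. Saline replicate 2 is the lowest library for 33 genes, while Ebf1 and Oprm1 are highest there.

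No gene of the list passed the test between PLEA and saline. With edgeR's quasi-likelihood test and Benjamini-Hochberg adjustment over all 17584 genes, 0 of the 37 were higher and 0 lower, as for all tested genes (0% in each direction), and their adjusted p ranged from 0.818 to 0.982. At an unadjusted p under 0.05, 1 member was higher (Scn4b) against 2.28% of all tested genes, and 1 was lower (Ebf1) against 3.58%. Log2 fold changes were above 0 for 35 of the 37, against 49% of all tested genes. Their median was 0.49, where the median over all tested genes was -0.0051, and 18 were at 0.5 or more, against 6.64% of all tested genes. For 36 of the 37 the log2 range among the saline libraries alone exceeded the log2 fold change, as for 85.8% of all tested genes. The exception was Scn4b. The PLEA libraries lay above all saline libraries for 0 of the 37 genes (5.16% of all tested genes) and below them for Ebf1 alone (5.54%).

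Among the dopamine receptors, Drd1, the D1 receptor of the direct pathway, was at 42.2, 5.66 and 81.3 CPM in saline and at 38.8, 104 and 74.2 CPM in PLEA. Saline replicate 3 exceeded PLEA replicate 3, and PLEA replicate 1 lay below saline replicate 1, so the groups overlapped. The saline mean was 43.1 ± 37.8 CPM (SD, n = 3). The PLEA mean was 72.5 ± 32.9 CPM (SD, n = 3), and the log2 fold change was 0.75 (SE 0.73, edgeR adjusted p = 0.873). Drd2, the D2 receptor of the indirect pathway, was at 22.9, 11.1 and 60.8 CPM in saline and at 29.1, 55.9 and 50.3 CPM in PLEA. Its highest library was saline replicate 3, and its log2 fold change was 0.51 (SE 0.53, edgeR adjusted p = 0.876). Drd3, the D3 receptor, which marks the ventral striatum and the islands of Calleja, had 1.0505 CPM per kb of gene length, against 15.9 for Drd1 and 15.1 for Drd2. Drd3 was at 1.06, 0.347 and 2.89 CPM in saline and at 0.636, 3.40 and 2.46 CPM in PLEA, with 6 counts in saline replicate 2.

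Adora2a, the adenosine receptor of indirect pathway cells, had the widest spread of the 37 genes. It was at 31.5, 1.33 and 76.5 CPM in saline and at 25.1, 57.2 and 49.5 CPM in PLEA. Saline replicates 2 and 3 were its lowest and highest library, a 57.5-fold range within 1 group. The 23 counts behind the value of saline replicate 2 give an exact 95% Poisson interval of 0.843 to 1.99 CPM, which covers counting error only. The log2 fold change of Adora2a was 0.27 (SE 0.92, edgeR adjusted p = 0.972), and without saline replicate 2 it was -0.30 (SE 0.41).

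The orphan receptors Gpr6 and Gpr52, also enriched in indirect pathway cells, had the same order of libraries. Gpr6 was at 6.28, 1.27 and 19.3 CPM in saline and at 8.50, 14.1 and 16.2 CPM in PLEA. Gpr52 was at 14.1, 3.64 and 30.2 CPM in saline and at 15.9, 27.0 and 24.4 CPM in PLEA. For both, saline replicate 3 was the highest library, and the log2 fold changes of 0.53 (SE 0.73) for Gpr6 and 0.49 (SE 0.59) for Gpr52 were 0.019 and 0.016 without saline replicate 2. The gene body of Gpr52 lies within that of Rabgap1l on the same strand, and its exons were not checked for overlap.

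Gpr149, another orphan receptor, followed the order less closely. It was at 6.34, 5.90 and 17.2 CPM in saline and at 2.95, 19.2 and 9.84 CPM in PLEA, so PLEA replicate 1 was its lowest library. Oprm1, the µ-opioid receptor, which in the striatum is dense in patches called striosomes, was at 1.94, 8.61 and 4.92 CPM in saline and at 4.16, 5.21 and 3.86 CPM in PLEA. The 3 PLEA libraries lay inside the saline range, and its log2 fold change of -0.23 (SE 0.46) was 0.36 without saline replicate 2. In GENCODE M21, 96 exon bases of Oprm1 are shared with the opposite-strand gene Ipcef1.

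**Figure D2:**
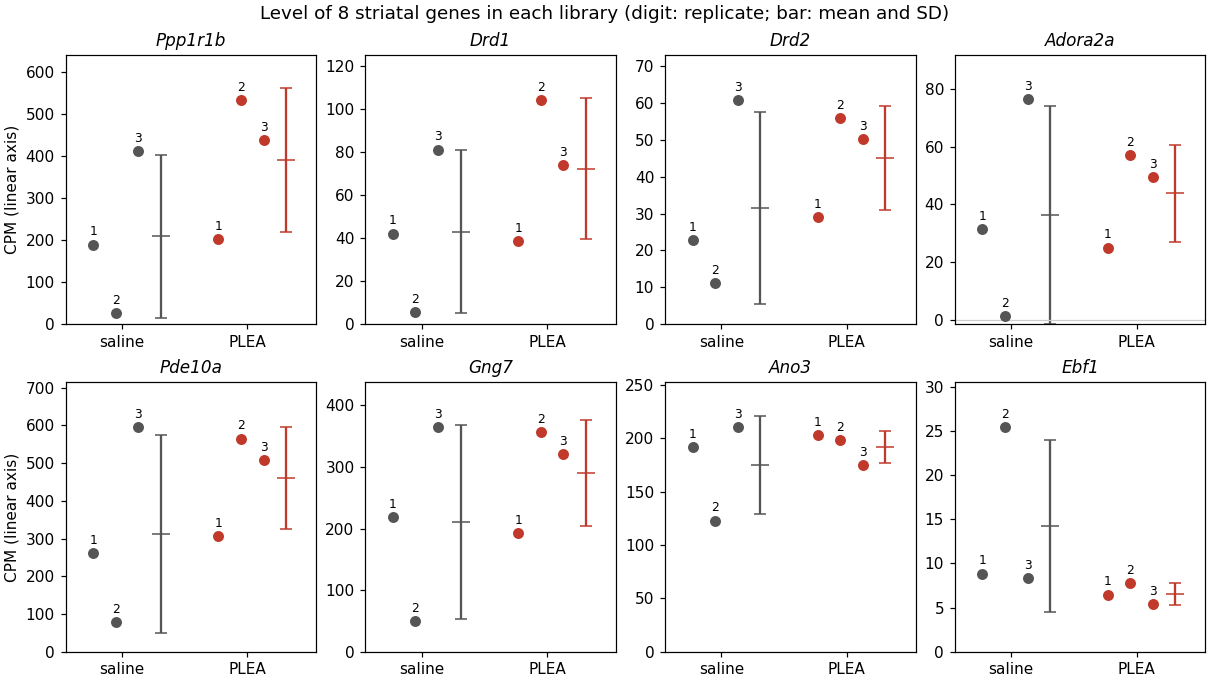
Each panel shows the CPM (linear axis) of 1 gene in the 3 saline libraries (grey) and the 3 PLEA libraries (red), with the replicate number over each point and the mean with its SD at the right. For Adora2a the saline libraries span 1.33 to 76.5 CPM, and the PLEA libraries lie inside that range, while for Ebf1 saline replicate 2 alone is at 25.4 CPM.

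Of the genes that carry the receptor signal to cyclic AMP, Gng7, Adcy5 and Gnal had 66.2, 48.0 and 27.2 CPM per kb of gene length, above the 15.9 CPM per kb of Drd1. Adcy5, adenylyl cyclase 5, was at 286, 124 and 510 CPM in saline and at 285, 461 and 404 CPM in PLEA. Gnal, which encodes Gαolf, was at 263, 151 and 436 CPM in saline and at 293, 367 and 311 CPM in PLEA. Saline replicates 2 and 3 bounded the PLEA libraries on both sides for each of these genes. In GENCODE M21, 7.63% of the exon bases of Gnal are shared with the opposite-strand gene Mppe1. Gng7, the γ subunit found with Gαolf in striatal cells, was at 219, 49.1 and 364 CPM in saline and at 192, 357 and 321 CPM in PLEA. Its fold range over the 6 libraries was 7.42, against 4.13 for Adcy5 and 2.88 for Gnal. The log2 fold changes of Adcy5, Gnal and Gng7 were 0.32 (SE 0.43), 0.19 (SE 0.33) and 0.46 (SE 0.58), with edgeR adjusted p = 0.906, 0.929 and 0.898.

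Rgs9, whose striatal form speeds the shut-off of G protein signalling, was at 74.0, 19.2 and 182 CPM in saline and at 80.7, 208 and 167 CPM in PLEA. PLEA replicate 2 was highest and saline replicate 3 exceeded PLEA replicate 3 (log2 fold change 0.73, SE 0.67, edgeR adjusted p = 0.867). Rasgrp2, an activator of Rap1, was at 35.7, 39.4 and 66.5 CPM in saline and at 35.3, 55.5 and 58.1 CPM in PLEA. Its levels spanned 1.88-fold over the libraries, and its lowest value was in PLEA replicate 1.

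Pde10a, the phosphodiesterase abundant in all medium spiny neurons, was at 262, 78.6 and 595 CPM in saline and at 307, 565 and 509 CPM in PLEA. Pde1b, a calcium-activated phosphodiesterase, was at 239, 141 and 474 CPM in saline and at 268, 423 and 397 CPM in PLEA. In both, the highest library was a saline one and the groups overlapped. Their log2 fold changes were 0.56 (SE 0.59, edgeR adjusted p = 0.879) and 0.35 (SE 0.39, edgeR adjusted p = 0.885), and without saline replicate 2 they were 0.10 and 0.021.

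Ppp1r1b, the gene of DARPP-32, had the highest level per length of the 37, at 102 CPM per kb of gene length over all libraries. Gng7 followed with 66.2, Pde1b with 60.0, Scn4b with 52.2 and Adcy5 with 48.0 CPM per kb. Ppp1r1b was at 189, 25.8 and 411 CPM in saline and at 202, 533 and 436 CPM in PLEA. PLEA replicates 2 and 3 were above every saline library and PLEA replicate 1 was below saline replicate 3. Its log2 fold change was 0.90 (SE 0.77, edgeR adjusted p = 0.859), and it was 0.38 (SE 0.42) without saline replicate 2 and 1.84 (SE 0.78) without saline replicate 3. The deposited table places Ppp1r1b on chromosome 11, bases 98239230 to 98248622. In GENCODE M21, 15.7% of its exon bases are shared with the opposite-strand gene 1700003D09Rik, which had 269 counts over the 6 libraries against 31056 for Ppp1r1b.

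Arpp21 and Ptpn5, which encode the cyclic AMP-regulated phosphoprotein ARPP-21 and the phosphatase STEP, are expressed in cortex as well as striatum. Arpp21 was at 469, 247 and 677 CPM in saline and at 531, 699 and 567 CPM in PLEA. Ptpn5 was at 165, 163 and 250 CPM in saline and at 215, 271 and 281 CPM in PLEA. The fold range over the libraries was 2.83 for Arpp21 and 1.73 for Ptpn5, against 20.6 for Ppp1r1b. Ptpn5 had the third-smallest p of the list, with a log2 fold change of 0.41 (SE 0.19, edgeR adjusted p = 0.818).

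The transcription factors of the list differed in how strongly they varied. Isl1, which specifies direct pathway cells, was at 4.46, 0.462 and 12.1 CPM in saline and at 5.43, 13.7 and 12.4 CPM in PLEA. Saline replicate 2 had 8 counts of Isl1, and the range over the libraries was 29.5-fold (log2 fold change 0.89, SE 0.82, edgeR adjusted p = 0.866). Sp9 and Six3, which act in the development of indirect pathway cells, had narrower ranges. Sp9 was at 6.45, 1.73 and 11.2 CPM in saline and at 6.99, 13.7 and 12.0 CPM in PLEA. In GENCODE M21, Sp9 shares 5.35% of its exon bases with Cir1 and Six3 1.95% with Six3os1, both on the opposite strand. Six3 was at 9.09, 4.91 and 23.7 CPM in saline and at 11.2, 35.0 and 28.0 CPM in PLEA. Six3 had the largest log2 fold change of the list, 0.98 (SE 0.57, edgeR adjusted p = 0.827), and without saline replicate 2 it was 0.59 (SE 0.50).

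Dlx5 and Dlx6, homeobox genes of GABAergic neurons that lie side by side, had similar profiles. The deposited table places Dlx6 on chromosome 6 at bases 6863334 to 6868568 and Dlx5 at bases 6877805 to 6882085, on opposite strands. Dlx5 was at 4.87, 1.91 and 8.68 CPM in saline and at 4.62, 9.92 and 10.96 CPM in PLEA. Dlx6 was at 7.86, 2.72 and 16.2 CPM in saline and at 9.48, 22.3 and 15.3 CPM in PLEA. Log2 fold changes were 0.72 (SE 0.52) for Dlx5 and 0.81 (SE 0.56) for Dlx6, with edgeR adjusted p = 0.844 and 0.842. For each, PLEA replicate 1 was close to saline replicate 1, and saline replicate 3 fell between PLEA libraries for Dlx6 and below PLEA replicates 2 and 3 for Dlx5.

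The retinoic acid receptor genes Rxrg and Rarb are known to be expressed in striatal neurons. Rxrg was at 19.1, 4.28 and 34.5 CPM in saline and at 18.6, 19.5 and 25.2 CPM in PLEA, so saline replicate 3 was the highest library. Rarb was at 7.98, 3.01 and 19.6 CPM in saline and at 10.6, 17.4 and 15.9 CPM in PLEA. Without saline replicate 2 the log2 fold change of Rxrg went from 0.13 (SE 0.57) to -0.35 (SE 0.25), and that of Rarb from 0.53 (SE 0.55) to 0.088 (SE 0.37). Rarb is uncertain, since 1793 of its 5265 exon bases in GENCODE M21 (34.1%) are shared with the opposite-strand gene Top2b. Top2b had 18282 counts over the 6 libraries against 1281 for Rarb, and the strand setting of the counting is not given in the sources used here.

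Meis2 and Foxp1, transcription factors of striatal and some cortical neurons, had narrower ranges. Meis2 was at 171, 110 and 279 CPM in saline and at 189, 278 and 223 CPM in PLEA. Foxp1 was at 151, 100.1 and 165 CPM in saline and at 144, 189 and 155 CPM in PLEA. Both had saline replicate 2 as their lowest library, with ranges of 2.53-fold and 1.88-fold. Log2 fold changes of 0.30 (SE 0.31) and 0.23 (SE 0.20) had edgeR adjusted p = 0.875 and 0.860, and without saline replicate 2 they were 0.029 and 0.036.

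Ebf1, a transcription factor of developing direct pathway cells that is also expressed outside the striatum, had the opposite profile. It was at 8.86, 25.4 and 8.37 CPM in saline and at 6.47, 7.82 and 5.37 CPM in PLEA. All PLEA libraries were below all saline libraries, with saline replicate 2 far above the rest. Its log2 fold change of -1.12 (SE 0.43, edgeR adjusted p = 0.818) was -0.40 (SE 0.23) without saline replicate 2.

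Among channels and structural genes, Scn4b, the sodium channel β4 subunit, had the smallest p of the list. It was at 219, 165 and 203 CPM in saline and at 206, 439 and 328 CPM in PLEA. Saline replicate 3 lay below saline replicate 1, and PLEA replicate 1 lay inside the saline range. The log2 fold change was 0.73 (SE 0.26, edgeR adjusted p = 0.818), and without saline replicate 2 it was 0.61 (SE 0.28, edgeR adjusted p = 0.715). Ano3, of the anoctamin family, was at 192, 123 and 210 CPM in saline and at 203, 198 and 175 CPM in PLEA, the narrowest range of the list at 1.71-fold (log2 fold change 0.13, SE 0.19, edgeR adjusted p = 0.911). Actn2, an actin cross-linker of dendritic spines, was at 16.7, 4.62 and 38.8 CPM in saline and at 26.7, 33.3 and 35.0 CPM in PLEA (log2 fold change 0.66, SE 0.58, edgeR adjusted p = 0.860).

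Lrrc10b and Sh3rf2 had wide ranges of 22.6-fold and 41.2-fold. Lrrc10b, a leucine-rich repeat gene, was at 17.0, 2.20 and 35.7 CPM in saline and at 13.1, 49.6 and 38.2 CPM in PLEA (log2 fold change 0.88, SE 0.79, edgeR adjusted p = 0.860). Sh3rf2 was at 4.58, 0.405 and 15.6 CPM in saline and at 7.05, 16.7 and 14.3 CPM in PLEA, with 7 counts in saline replicate 2 (log2 fold change 0.88, SE 0.87, edgeR adjusted p = 0.875). In both, PLEA replicate 2 was highest and saline replicate 2 lowest. Strip2 was at 77.03, 41.2 and 211 CPM in saline and at 84.1, 138 and 145 CPM in PLEA, so saline replicate 3 was its highest library. Its log2 fold change went from 0.16 (SE 0.51, edgeR adjusted p = 0.969) to -0.23 (SE 0.39) without saline replicate 2.

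Syndig1l, of the SynDIG family of AMPA receptor-associated proteins, was at 21.7, 9.65 and 41.9 CPM in saline and at 23.9, 35.7 and 34.8 CPM in PLEA (log2 fold change 0.37, SE 0.44, edgeR adjusted p = 0.892). Gprin3 was at 43.9, 32.1 and 72.9 CPM in saline and at 42.3, 60.9 and 60.9 CPM in PLEA (log2 fold change 0.14, SE 0.29, edgeR adjusted p = 0.943). Saline replicate 3 was highest for both. Ido1, which encodes indoleamine 2,3-dioxygenase, a tryptophan-degrading enzyme better known from immune cells, had 1.199 CPM per kb of gene length. Ido1 was at 1.23, 0.867 and 2.89 CPM in saline and at 1.39, 3.23 and 3.52 CPM in PLEA. Its lowest library was saline replicate 2 and its highest PLEA replicate 3.

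Receptor genes of the direct and the indirect pathway were also set against each other within each library. The counts ratio of Drd1 to Drd2, not corrected for length and compared only between libraries, was 1.85, 0.510 and 1.34 in saline and 1.33, 1.87 and 1.48 in PLEA. That of Adora2a to Drd2 was 1.38, 0.120 and 1.26 in saline and 0.861, 1.02 and 0.984 in PLEA. In saline replicate 2 both ratios were far below the other libraries, so Drd1 and Adora2a were lower there relative to Drd2. The counts ratio of Drd1 to Adora2a went the other way, with its highest value, 4.26, in saline replicate 2. That ratio was 1.34 and 1.06 in saline replicates 1 and 3, and 1.55, 1.82 and 1.50 in PLEA. Apart from saline replicate 2, the Drd1 to Drd2 ratio spanned 1.34 to 1.85 in saline and 1.33 to 1.87 in PLEA. The Adora2a to Drd2 ratio lay below both of the other saline libraries in all 3 PLEA libraries, as a description without a test.

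The result depended on which saline library was kept. Without saline replicate 2 the median log2 fold change of the 37 genes was 0.088, and 25 were above 0, against 50.7% of all genes then tested. No member then had an unadjusted edgeR p under 0.05 in either direction, where 2.31% of genes were higher and 4.56% lower. Without saline replicate 3 the median was 1.31, and 24 of the 37 were higher at an unadjusted edgeR p under 0.05 (3.27% of genes) and 1 was lower (4.93% of genes). Their smallest edgeR adjusted p was then 0.549. The 24 included Ppp1r1b, Drd2, Isl1 and Pde10a, and the 1 lower gene was Ebf1.

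**Figure D3:**
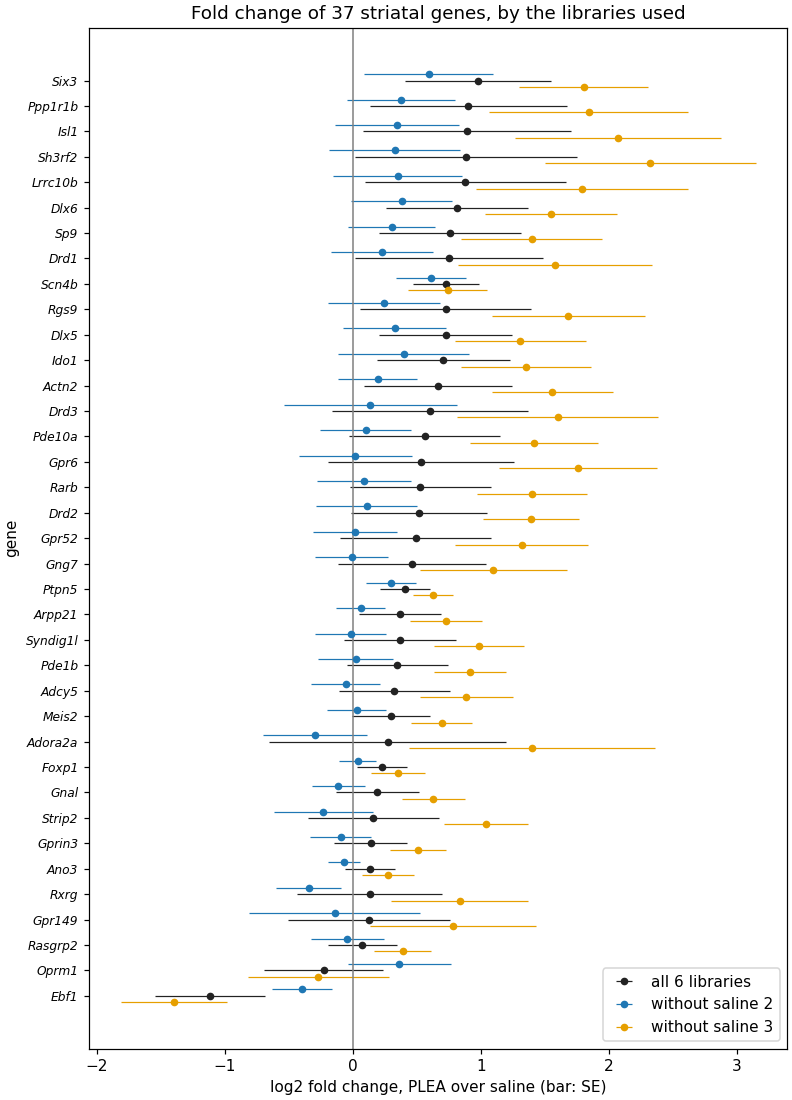
Points give the log2 fold change of PLEA over saline for each of the 37 genes with its SE, with all 6 libraries (black), without saline replicate 2 (blue) and without saline replicate 3 (orange). The median is 0.49 with all libraries, 0.088 without saline replicate 2 and 1.31 without saline replicate 3.

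Of 19 other genes of striatal neurons that are not among the 37, 12 showed the order of libraries given above, against 3.85% of all tested genes, and 7 did not (Cnr1, Spock3, Ppp1r1a, Gucy1a1, Gucy1b1, Kcnab1 and Ryr1). Of the 19, 0 were higher and 0 lower in edgeR after adjustment over all genes. In saline replicate 2, 15 of the 19 had their lowest level, against 22.2% of all tested genes. The median log2 fold change of the 19 was 0.32, against -0.0051 over all tested genes. Penk, the enkephalin precursor of indirect pathway cells, was at 150, 46.2 and 455 CPM in saline and at 179, 342 and 329 CPM in PLEA. Hpca, a calcium sensor found widely in the forebrain, was at 336, 299.9 and 503 CPM in saline and at 422, 598 and 546 CPM in PLEA. Gucy1b1, a subunit of soluble guanylyl cyclase, was at 189, 196 and 282 CPM in saline and at 240.0, 260.5 and 218 CPM in PLEA, so saline replicate 1 was its lowest library. Cnr1, the CB1 cannabinoid receptor, was at 183, 173 and 264 CPM in saline and at 251, 207 and 199 CPM in PLEA, with PLEA replicate 1 above PLEA replicates 2 and 3. Gucy1b1 and Cnr1 were at log2 fold changes of 0.11 (SE 0.17) and 0.081 (SE 0.18). With the summed level of these 19 genes as a covariate, the median log2 fold change of the 37 was 0.080, and 21 of the 37 were above 0. That covariate carries any effect of PLEA on RNA per striatal cell as well as the share of striatum, and these cannot be told apart.

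The general cyclic AMP and DARPP-32 machinery is used by most neurons. Of 24 such genes, 0 were higher and 0 lower in edgeR after adjustment. At an unadjusted p under 0.05, 0 were higher (2.28% of all tested genes) and 0 lower (3.58%), a count near the background for a list of this size, and the median log2 fold change was 0.10. The median deviation in saline replicate 2 was -0.12 on the log2 scale, against -1.58 for the 37. Ppp3ca, the calcineurin subunit that acts against DARPP-32 phosphorylation, was at a log2 fold change of 0.14 (SE 0.16). Prkacb and Prkar1b, subunits of protein kinase A, were at -0.0039 (SE 0.15) and 0.00049 (SE 0.14).

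Markers of other regions and cells were set beside these values. Markers of cortex, the tissue named in the series description, were present in every library. The 18 genes of cortical projection neurons summed to 2167 to 2529 CPM in saline and 2057 to 3098 CPM in PLEA, and none was at 0. Slc17a7, the vesicular glutamate transporter of cortical neurons, was at 1013, 586 and 1042 CPM in saline and at 1251, 701 and 844 CPM in PLEA. The counts ratio of Ppp1r1b to Slc17a7 was 0.187, 0.0441 and 0.395 in saline and 0.161, 0.760 and 0.517 in PLEA, with the same 2 libraries in the middle. Saline replicate 2 was the highest library for 12 of 12 white matter and oligodendrocyte genes, 7 of 9 thalamus genes and 6 of 9 hippocampus genes. The share over all tested genes was 21.9%. Wfs1 and Zbtb20, the most abundant hippocampus genes, were instead lowest there, at 58.1 and 134 CPM. Because Wfs1 and Zbtb20 weigh most in the sum, the summed hippocampus list was lowest there too, at 286 CPM against 325 to 515 CPM in the other libraries. By contrast, the median deviation of the hippocampus list in saline replicate 2 was 0.75 on the log2 scale. Slc17a6, the glutamate transporter of thalamic and midbrain neurons, was at 23.3, 284 and 29.4 CPM in saline and at 22.4 to 37.8 CPM in PLEA, while Prkcd, also a thalamus marker, was lowest in saline replicate 2.

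Of 13 genes of striatal interneurons, several are shared with cortical interneurons. In saline replicate 2, 8 of the 13 were lowest, against 22.2% of all tested genes, and Lhx8 had 0 counts. Pvalb and Th were highest there, at 30.4 and 8.55 CPM, where 21.9% of all tested genes had their highest level. Summed levels of this list were 238, 264 and 382 CPM in saline and 297 to 337 CPM in PLEA. The 10 pan-neuronal genes summed to 10370 to 11845 CPM in saline and 10741 to 11712 CPM in PLEA, with a median deviation of 0.079 on the log2 scale in saline replicate 2. The part of these differences in tissue composition in the result for the 37 genes was not tested beyond the values without saline replicate 2 and with the covariates.

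**Figure D4:**
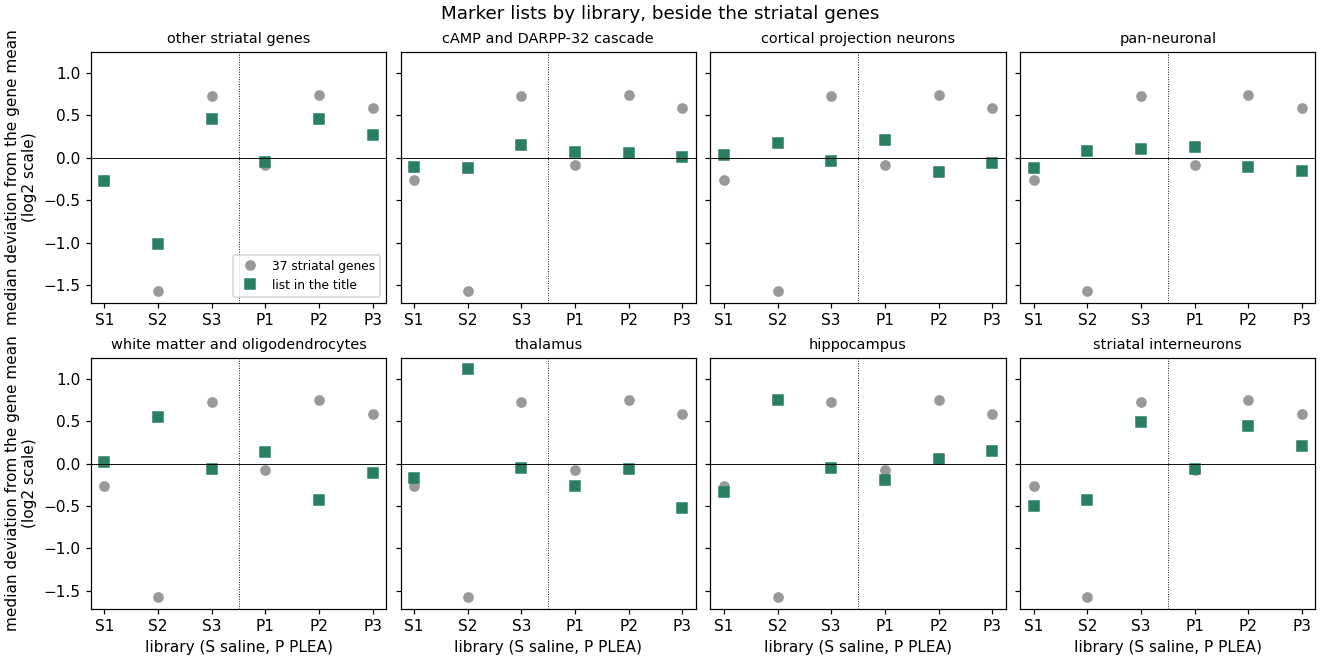
Each panel gives, for the 6 libraries (S saline, P PLEA), the median deviation from each gene's own mean on the log2 scale, for a list of markers (green squares) and for the 37 striatal genes (grey circles). In saline replicate 2 the thalamus list is at 1.11 and the white matter list at 0.55, where the 37 genes are at -1.58.

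No gene of the meninges, microglia and astrocyte lists was higher or lower in edgeR after adjustment. At an unadjusted p under 0.05, 8 of 8 meninges, 2 of 8 microglia and 4 of 8 astrocyte genes were lower, against 3.58% of all tested genes, and 0 were higher. These lists were chosen with earlier results of the same data known, so the shares are a description and not a test. The 8 meninges genes summed to 120 to 159 CPM in saline and 49.3 to 68.4 CPM in PLEA. The 8 microglia genes summed to 263 to 755 CPM in saline and 138 to 398 CPM in PLEA, and the 8 astrocyte genes to 4489 to 7287 CPM in saline and 3444 to 4668 CPM in PLEA. The 5 choroid plexus genes summed to 6.22 to 23.6 CPM in saline and to 10.7, 36.3 and 330 CPM in PLEA. Ttr alone was at 281 CPM in PLEA replicate 3, against 0.173 and 5.55 CPM in PLEA replicates 1 and 2. Folr1 was at 0 counts in saline replicate 3. The 9 genes of the ventricle lining summed to 109 to 127 CPM in saline and 124 to 154 CPM in PLEA, with Ccdc153 and Tmem212 at 0 counts in saline replicate 1. The 6 septum and pallidum genes summed to 55.9 to 177 CPM in saline and 117 to 221 CPM in PLEA, and the 5 claustrum and amygdala genes to 125 to 199 and 105 to 180 CPM. Their part in the values of the striatal genes was not tested.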

How the data were processed

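The deposited data are raw counts of reads for each gene, per the file headers. GRCm38 and mm10 are the builds in the submitters' processing notes, but 2 of 36 members with an entry in GENCODE M21 (GRCm38) had the same coordinates, so table coordinates carry no build. For the aligner, counter and strand, nothing is given in the sources used here. Libraries were grouped by title. The main test was edgeR's quasi-likelihood F test (version 4.0.16, R 4.3.3) on group alone, after filterByExpr and TMM scaling, with Benjamini-Hochberg adjustment over 17584 genes at a threshold of 0.05, and SE is the log2 fold change over the square root of F. Deviations used log2(CPM + 0.1).

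The members and lists were chosen with earlier results of these data known. The rule named all 37 members and the 4 most abundant tested genes of other lists, of which some are given and 1 is not reported here; Prkcd, Lhx8, Folr1, Ccdc153 and Tmem212 fall under it as listed genes or genes at 0. Alternatives were DESeq2 1.42.0, limma 3.58.1 voom, RLE and upper-quartile factors, 2 filters, a replicate block, 2 covariates and leaving out each library. On simulated counts of this comparison with 17584 genes, edgeR recovered 2.99%, 44.8% and 71.2% of genes changed 1.5-fold, 2-fold and 4-fold, and 9 of 88 calls were unchanged genes. The simulated counts were drawn for each gene separately, with no shift shared by genes within a library. These shares therefore need not hold for the 37 genes. No pair of libraries agreed within sampling noise (chi-square per gene of at least 13.1), so each counted as 1 sample.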

Additional observations from a re-analysis of the deposited data

How the results depend on the processing

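Genes called higher and lower were 7 and 31 without a filter, 3 and 36 with DESeq2, and 0 and 0 under the remaining alternatives that kept all libraries, and the cause was not tested. When single libraries were dropped, 0 genes were higher and 0 to 1 lower, the 1 call being without saline replicate 1. Striatal members called numbered 0 higher and 0 lower under all 15 alternatives. The median log2 fold change of the 37, 0.49, was 0.79 with limma voom, 0.74 with the replicate block, 0.080 with the other striatal genes as a covariate, 0.44 with cortical projection neurons as a covariate, and 0.088 to 1.31 when 1 library was left out. Of the 37 genes, 22 kept their sign under all 15 alternatives.

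The signs of the other 15 genes turned as follows. With limma voom Gpr149 was at -0.046 and Oprm1 at 0.0049, and with cortical projection neurons as a covariate Gpr149 was at -0.29. With the other striatal genes as a covariate, Drd3 was at -0.085, Adora2a at -0.26, Gpr149 at -0.54, Gnal at -0.091, Gng7 at -0.016, Adcy5 at -0.064, Rasgrp2 at -0.18, Pde1b at -0.013, Meis2 at -0.0050, Rxrg at -0.19, Ano3 at -0.0020, Syndig1l at -0.0029, Strip2 at -0.23 and Gprin3 at -0.15. Leaving out 1 library gave ranges of -0.30 to 1.40 for Adora2a, -0.61 to 0.78 for Gpr149, -0.61 to 0.36 for Oprm1, -0.11 to 0.63 for Gnal, -0.010 to 1.097 for Gng7, -0.057 to 0.89 for Adcy5, -0.084 to 0.39 for Rasgrp2, -0.35 to 0.83 for Rxrg, -0.070 to 0.27 for Ano3, -0.016 to 0.99 for Syndig1l, -0.23 to 1.04 for Strip2 and -0.096 to 0.51 for Gprin3.

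The replicate numbers of the labels are shared between groups. Same-numbered libraries had correlations of deviations from the group means of 0.37, 0.17 and -0.018. Saline replicates 1 and 2 each correlated best with the PLEA library of the same number. Saline replicate 3 correlated best with PLEA replicate 2 (0.23). The match did not hold for every number, so the numbers were not taken to pair libraries. With the replicate block 0 genes were higher and 0 lower, and Gpr149 was at -0.064. Genes with few counts in saline replicate 2, such as Drd3 with 6, Sh3rf2 with 7 and Isl1 with 8, have fold ranges limited by counting error.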
